A study of Mus musculus with 8 samples.

Results

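The 10 genes described here encode enzymes and a chaperone that modify, fold and crosslink fibrillar collagen: the lysyl oxidases Lox, Loxl1, Loxl2 and Loxl3, the lysyl hydroxylases Plod1 and Plod2, the prolyl 4-hydroxylase alpha subunits P4ha1 and P4ha2, the collagen chaperone Serpinh1 (HSP47) and the transglutaminase Tgm2. They were taken by name from the gene table of the series, where all 10 were present among 13687 genes. Gene expression had been measured by RNAseq in primary peritoneal mesothelial cells (MCs), obtained by digesting the parietal peritoneum of WT mice and of littermates lacking caveolin 1 in every cell (CAV1-/-, strain B6.Cg-CAV1tm1mls/J). MCs were grown to confluence and then left static or stretched mechanically for 24 h. Each of 4 animals, 2 per genotype, gave 1 static and 1 stretched culture, so the 8 libraries form 4 groups of 2 cultures, and WT MCs carried no other allele or agent. Cultures were numbered replicate 1 and replicate 2 within a group, and the labels assign replicate 1 of both conditions to the same animal.

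Collagen chains are hydroxylated on proline and lysine in the endoplasmic reticulum, where hydroxyproline stabilizes the triple helix and hydroxylysine sets which crosslinks can form later. HSP47 binds the folded helix in the endoplasmic reticulum. After secretion, lysyl oxidases oxidize lysines and hydroxylysines outside the cell, and the fibre then crosslinks. In the peritoneum, MCs that turn into myofibroblasts are a source of such matrix, and stiff, crosslinked collagen is a feature of peritoneal fibrosis.

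All values are CPM, counts scaled to a library size that the TMM method had adjusted, and every library held at least 436 reads of each of the 10 genes. Recovered depth ranged from 9777738 to 21203938 reads, and all 4 stretched libraries were deeper than all 4 static ones, so depth and stretch cannot be told apart. Cav1, the deleted gene, ranged from 247 to 764 in WT MCs and from 12.8 to 34.5 in CAV1-/- MCs, as labelled. The 11 mesothelial markers summed to between 2184 and 3323 in WT and to between 447 and 682 in CAV1-/- MCs. In each condition 9 of 11 were lower in CAV1-/- MCs without overlap. Of all genes, 36.9% (static) and 30.5% (stretched) did not overlap, in either direction. Wt1 (94.9 to 133 in WT, 74.9 to 138 in CAV1-/- MCs) and Krt19 (21.7 to 65.9 and 2.67 to 69.4) overlapped. Muc16 was low in WT too, at 2.96 to 5.01 CPM, and under 1 CPM in all CAV1-/- libraries. The 13 leukocyte markers were all higher in both cultures of CAV1-/- replicate 1 (sums of 4826 and 4857) than in the 6 other libraries (73.6 to 464). In bulk RNA, fewer cells of a type and less RNA per cell cannot be told apart.

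The plain picture was this: Lox, Loxl3, Plod1, Plod2 and P4ha1 were higher and Tgm2 lower on stretch in all 4 animals, by 1.34-fold or more in each animal for Plod2 and by amounts that differed between the genotypes for Tgm2. Only Plod2 and Tgm2 passed a test, in the fit with the animal as a block. Both calls were lost without either CAV1-/- animal, as were nearly all calls over all genes. No member separated the genotypes in both conditions, and Tgm2, Loxl3 and P4ha1 differed more between the animals of a genotype than between both cultures of any animal. With limma on log2(value + 1), 1 mean per group and Benjamini-Hochberg adjustment over 13665 genes, 0 of the 10 members passed an adjusted p of 0.05 in any of the 6 comparisons. The background of genes called was 0% for stretch in WT, stretch in CAV1-/-, the genotype by stretch interaction and the average of stretch over both genotypes, 0.0732% for CAV1-/- against WT in static culture and 0.0585% on stretch. No member reached an unadjusted p of 0.05 either, where the background was 2.27% and 2.09% for stretch in WT and CAV1-/- MCs, 8.17% and 6.26% for the genotypes in static and stretched culture, 0.483% for the interaction and 4.73% for the average. On recovered reads, edgeR's quasi-likelihood test also called 0 members in each comparison, beside 0.0146% and 0.0439% of genes for the genotypes in static and stretched culture and 0% in the others. DESeq2 called 0 members too, beside, of the genes it gave an adjusted p, 0.022% and 0.0512% for stretch in WT and CAV1-/- MCs, 2.26% and 1.78% for the genotypes in static and stretched culture, 0% for the interaction and 0.309% for the average.

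**Figure D1:**
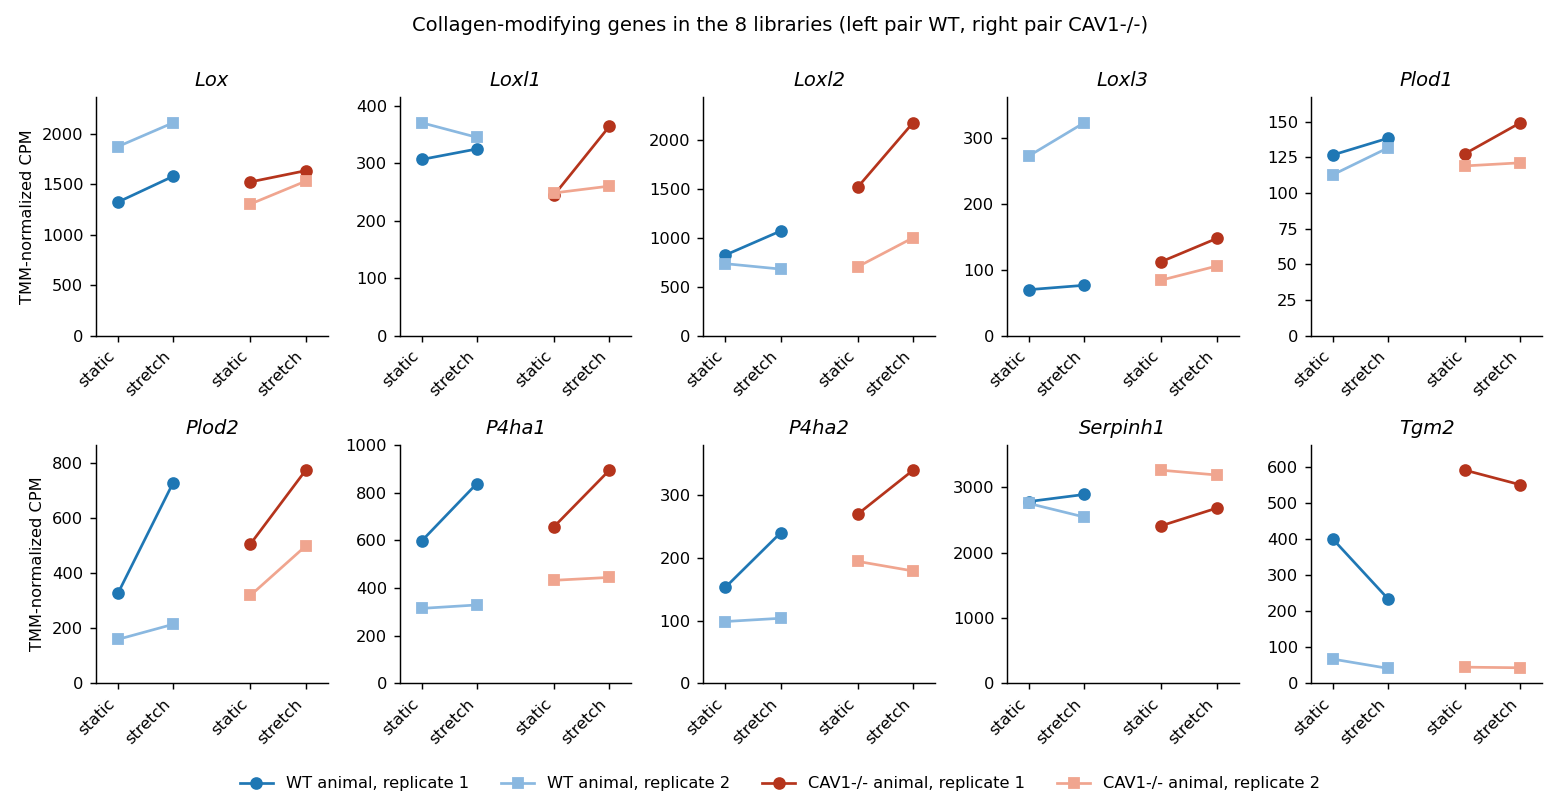
Each panel shows 1 gene in TMM-normalized CPM on a linear axis from 0, with a line joining the static and stretched culture of an animal (WT on the left, CAV1-/- on the right, circles for replicate 1 and squares for replicate 2). Plod2 climbs and Tgm2 drops along all 4 lines, and replicate 1 lies above replicate 2 in both genotypes for Plod2, P4ha1, P4ha2 and Tgm2.

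Each animal gave both conditions, and both cultures of an animal deviated from their group means together, so a fit with the animal as a block was also made. In this blocked fit, stretch averaged over both genotypes gave 2 of 10 members past an adjusted p of 0.05, Plod2 and Tgm2, against a background of 1.47% of genes, and 6 of 10 at an unadjusted p of 0.05 (Lox, Loxl2, Loxl3, Plod2, P4ha1 and Tgm2) against 21%. In the other comparisons in which the animal was a block, limma gave 0 members, beside backgrounds of 0% for stretch in WT, 0.00732% for stretch in CAV1-/- and 0% for the interaction. At an unadjusted p of 0.05 that fit counted 2 members for stretch in WT (Plod2 and Tgm2), 4 for stretch in CAV1-/- (Loxl1, Loxl2, Loxl3 and Plod2) and 1 for the interaction (Tgm2), beside backgrounds of 14.5%, 13.3% and 4.25%.

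Counted by animal, 5 of 10 members were higher on stretch in all 4 animals (Lox, Loxl3, Plod1, Plod2 and P4ha1), where 14.5% of all tested genes were, and 1 of 10 was lower in all 4 (Tgm2), where 16.9% were. Over 4 pairs the smallest two-sided p of an exact permutation test is 0.125. The median log2 fold change of the 10 members, averaged over genotypes, was 0.21, beside -0.01 for all genes tested, and ranged from 0.06 to 0.43 with 1 culture left out (0.06 without the stretched culture of CAV1-/- replicate 1, and 0.43 without that of CAV1-/- replicate 2).

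**Figure D2:**
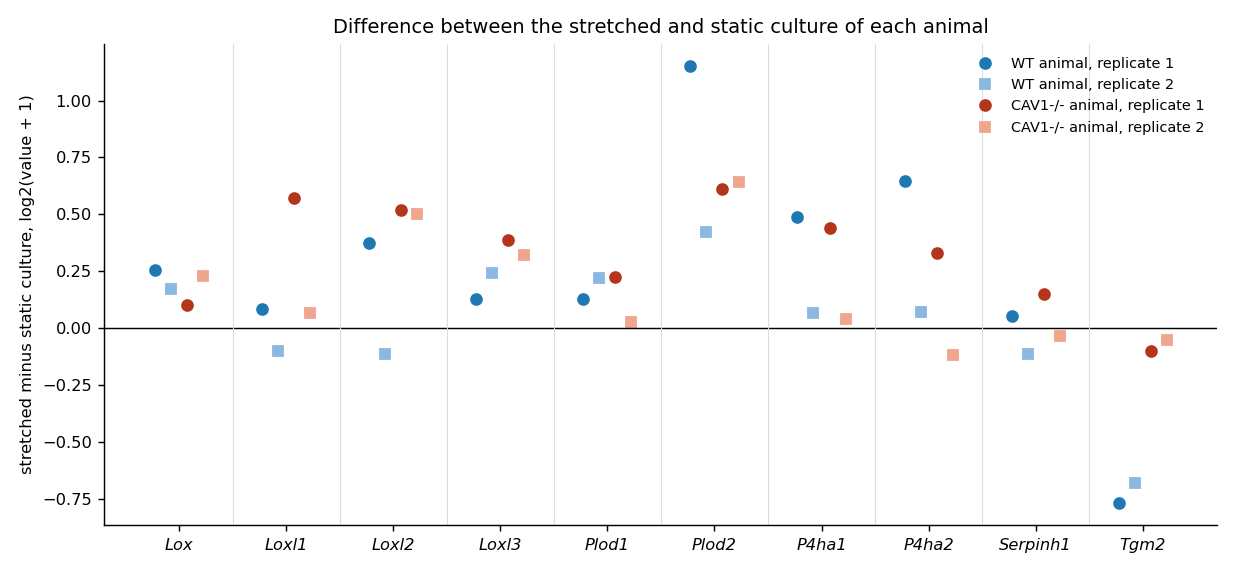
Points give the difference in log2(value + 1) between the stretched and the static culture of 1 animal, so 0 is no change (blue WT, red CAV1-/-, circles replicate 1, squares replicate 2). For Plod2 the 4 points lie between 0.42 and 1.15, and for Tgm2 between -0.77 and -0.05, with both WT animals lowest.

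Lysyl hydroxylases set the type of crosslink. Plod2 (ENSMUSG00000032374, GRCm38 chr9:92542223-92608428, plus strand), which hydroxylates lysines in the telopeptides of collagen, was at 327 and 159 in static and at 728 and 214 in stretched WT MCs. The CAV1-/- cultures held 506 and 319 when static and 773 and 498 when stretched. Groups overlapped, because replicate 1 was above replicate 2 in each group, but each animal was higher on stretch, 2.23-fold and 1.34-fold in the WT animals and 1.53-fold and 1.56-fold in the CAV1-/- animals. The average log2 fold change was 0.71 (SE 0.46, adjusted p = 0.991 by limma without block, and SE 0.12, adjusted p = 0.048 with the animal as a block). The call was lost without either CAV1-/- animal, where nearly all calls over all genes were lost too. The blocked value itself was 0.71 without CAV1-/- replicate 1 and 0.70 without CAV1-/- replicate 2. It was 0.52 without WT replicate 1 and 0.89 without WT replicate 2, where the call held. CAV1-/- replicate 1 was the animal with the highest leukocyte marker sums, whose part in the call was not tested. Each of these fits rests on 3 animals, with 1 genotype left at 1 animal.

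Plod1 (ENSMUSG00000019055, chr4:147909753-147936767, minus strand), which acts mainly on lysines of the helix, varied little between libraries. It was at 127 and 113 in static and 138 and 132 in stretched WT MCs, and at 128 and 119 in static and 149 and 121 in stretched CAV1-/- MCs. In WT MCs both stretched cultures were above both static ones, at a log2 fold change of 0.17 (SE 0.14, adjusted p = 1.00 by limma). Plod1 was the only 1 of 10 members whose groups did not overlap for stretch in WT, where 31.1% of genes did not. Averaged over genotypes it was 0.15 (SE 0.06, adjusted p = 0.241 with the block).

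Within a library, the ratio of Plod2 to Plod1 per kb of exon cancels scaling between libraries. It was 3.24 and 1.77 in static WT MCs and 6.60 and 2.04 on stretch, and 4.97 and 3.36 in static CAV1-/- MCs and 6.50 and 5.16 on stretch. The ratio was thus higher on stretch in 4 of 4 animals, by 2.04, 1.15, 1.31 and 1.53 times. Plod2 relative to Col1a1, the main fibrillar chain, was also higher on stretch in 4 of 4 animals, by 2.29 and 1.74 times in WT and 1.35 and 1.71 times in CAV1-/- MCs. Both ratios share Plod2, which was itself higher in all 4 animals. Of the other ratios taken, Lox over Col1a1 and Loxl2 over Lox were higher on stretch in 3 of 4 animals. P4ha2 over P4ha1 was higher in 2 of 4. Shares over all genes were not counted for ratios.

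**Figure D3:**
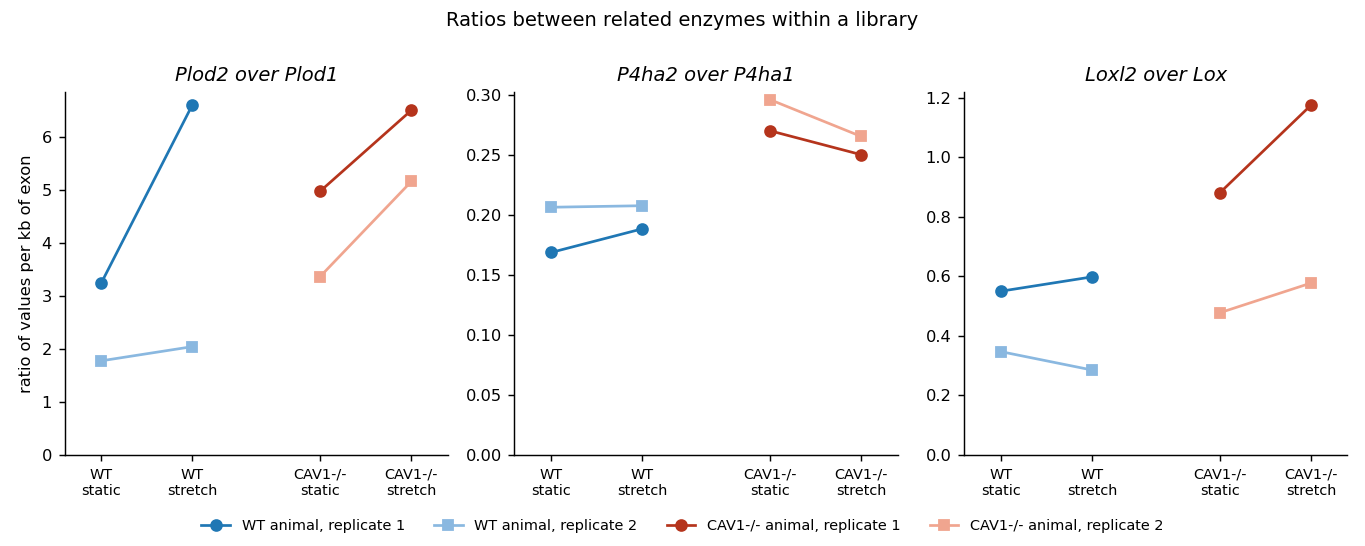
Ratios of 2 related genes within the same library, each per kb of exon, on linear axes from 0 with lines joining both cultures of an animal. Plod2 over Plod1 is higher on stretch along all 4 lines, and P4ha2 over P4ha1 is at 0.251 to 0.297 in the 4 CAV1-/- libraries and at 0.169 to 0.208 in the 4 WT libraries.

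Prolyl 4-hydroxylases are tetramers in which the alpha subunits carry the active site, and P4ha1 and P4ha2 are their main forms. P4ha1 (ENSMUSG00000019916, chr10:59323296-59373304, plus strand) was at 597 and 314 in static and 838 and 329 in stretched WT MCs. The CAV1-/- cultures held 657 and 432 when static and 894 and 444 when stretched. All 4 animals were higher on stretch, but unequally: 1.40-fold and 1.36-fold in replicate 1 of WT and CAV1-/-, and at most 1.05-fold in replicate 2. The average log2 fold change was 0.26 (SE 0.41, adjusted p = 0.999 by limma, and SE 0.10, adjusted p = 0.210 with the block).

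P4ha2 (ENSMUSG00000018906, chr11:54100095-54131665, plus strand) was at 153 and 98.5 in static and 240 and 104 in stretched WT MCs, and at 270 and 194 in static and 340 and 179 in stretched CAV1-/- MCs. In static culture both CAV1-/- values were above both WT values, at a log2 fold change of 0.89 (SE 0.50, adjusted p = 0.764 by limma), and at 0.66 without CAV1-/- replicate 1, whose cultures were both above the 6 other libraries. On stretch the genotypes overlapped, at 0.64 (SE 0.50, adjusted p = 0.963). P4ha2 stayed at a similar share of P4ha1 within a genotype, and the ratio per kb of exon lay higher in all 4 CAV1-/- libraries (0.271 and 0.297 static, 0.251 and 0.266 stretched) than in all 4 WT libraries (0.169 and 0.207 static, 0.189 and 0.208 stretched). That ratio was singled out after its values were seen, and with 2 animals per genotype the smallest two-sided p of an exact permutation test is 0.333.

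P4ha1 and P4ha2 followed each other across the 8 libraries (Pearson r = 0.89 over 8 libraries of 4 animals, as a description), and so did P4ha2 and Plod2 (r = 0.93). Their promoters are shown for this reason, as the 250 bases before the RefSeq start on GRCm38.p6, both on the plus strand, with the letters ACGTG or GCGTG on either strand in capitals (CACGT and CACGC in the printed strand). ACGTG and GCGTG are the core letters of the hypoxia response element, to which HIF binds. P4ha1 (chr10:59323046-59323295) lies before the gene, and P4ha2 (chr11:54100674-54100923) lies in an intron of a longer P4ha2 transcript, with 0 exons of GENCODE M21 over either window.
P4ha1: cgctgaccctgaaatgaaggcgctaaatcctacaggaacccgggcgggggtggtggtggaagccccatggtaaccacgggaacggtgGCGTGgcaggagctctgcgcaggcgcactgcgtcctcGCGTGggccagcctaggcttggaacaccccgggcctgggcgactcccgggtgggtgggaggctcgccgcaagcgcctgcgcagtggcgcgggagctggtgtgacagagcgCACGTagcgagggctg
P4ha2: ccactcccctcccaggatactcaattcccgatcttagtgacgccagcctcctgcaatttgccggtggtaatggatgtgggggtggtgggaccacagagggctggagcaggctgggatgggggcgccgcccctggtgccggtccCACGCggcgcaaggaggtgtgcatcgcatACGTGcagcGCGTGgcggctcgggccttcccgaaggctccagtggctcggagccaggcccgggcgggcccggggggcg

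Each window held 3 such matches. Of 32851 promoter windows of the same length, 38.6% held at least 1 match and 6.58% held 3 or more, and among the 5587 windows with a GC content of at least 65% the shares were 66.7% and 17.6% (P4ha1 had 69.6% and P4ha2 70% GC). RefSeq windows were at hand for 4 of the 10 members, and those of Plod1 and Serpinh1 held 1 match each. A match describes letters and is no sign of binding.

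The 15 hypoxia response genes listed for comparison were, like both prolyl 4-hydroxylases, higher in replicate 1. In static cultures 14 of 15 were higher in replicate 1 of WT and 15 of 15 in replicate 1 of CAV1-/- MCs, and in stretched cultures the counts were again 14 and 15. Their summed level was 4449 and 2447 in static WT, 5253 and 2472 in stretched WT, 6052 and 3577 in static CAV1-/- and 6277 and 3410 in stretched CAV1-/- MCs. With stretch, 11 of 15 were higher and 4 lower on average, beside 47.7% of all genes higher, at a median log2 fold change of 0.07. With the block, Vegfa, which induces vessel growth, was called higher (0.50, SE 0.07, adjusted p = 0.033) and Adm, the adrenomedullin gene, lower (-1.12, SE 0.09, adjusted p = 0.028), while limma without block, edgeR and DESeq2 called 0 of the 15 (1 at an unadjusted p of 0.05 by limma). Their part in the levels of Plod2, P4ha1 and P4ha2 was not tested.

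Lysyl oxidases start the crosslinking outside the cell. Lox (ENSMUSG00000024529, chr18:52516067-52529867, minus strand), the founding member of the family, was the most abundant of the 4 on average, and above Loxl2 in 7 of 8 libraries. It was at 1324 and 1873 in static and 1579 and 2109 in stretched WT MCs, and at 1524 and 1305 in static and 1635 and 1531 in stretched CAV1-/- MCs. Stretched values were higher in 4 of 4 animals, by 1.07 to 1.19 times, and in CAV1-/- MCs both stretched cultures were above both static ones (log2 fold change 0.17, SE 0.24, adjusted p = 1.00 by limma). The average was 0.19 (SE 0.17, adjusted p = 0.991, and SE 0.07, adjusted p = 0.197 with the block), so the difference was small beside that between the WT animals.

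Loxl1 (ENSMUSG00000032334, chr9:58287738-58313186, minus strand), which is needed for elastic fibres, was at 307 and 371 in static and 325 and 345 in stretched WT MCs. It was at 245 and 248 in static and at 364 and 260 in stretched CAV1-/- MCs. Static CAV1-/- values were both below the static WT values, at a log2 fold change of -0.45 (SE 0.19, unadjusted p = 0.053, adjusted p = 0.620 by limma), and on stretch the genotypes overlapped. Loxl1 and P4ha2, of 10 members, did not overlap between genotypes in static culture, where 36.9% of genes did not, and 0 of 10 were apart on stretch, where 30.5% were. Within CAV1-/- MCs both stretched cultures were above both static ones (0.32, SE 0.19, adjusted p = 1.00 by limma), through a 1.49-fold difference in replicate 1 and a 1.05-fold difference in replicate 2. Lox and Loxl1 were the 2 of 10 members without overlap for stretch in CAV1-/- MCs, against 24.3% of genes. Elastin itself (Eln), a substrate of Loxl1, was at 86.8 and 114 in static and at 3.01 and 50.9 in stretched WT MCs, and under 0.5 CPM in all 4 CAV1-/- libraries.

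Loxl2 (ENSMUSG00000034205, chr14:69609068-69695834, plus strand), which oxidizes collagen IV and fibrillar collagen, was at 823 and 735 in static and 1068 and 680 in stretched WT MCs, and at 1516 and 704 in static and 2171 and 999 in stretched CAV1-/- MCs. Both cultures of CAV1-/- replicate 1 were higher than the 6 other libraries, as they were for P4ha2 and Tgm2. These were 3 of 10 members, beside 6 of 25 other collagen modification genes, 5 of 15 hypoxia response genes, 1 of 11 fibre substrates and 0 of 12 general chaperones. The share over all genes was not counted, so the 3 of 10 cannot be placed. That animal also had the highest leukocyte marker sums, whose part in this was not tested. Both CAV1-/- animals were higher on stretch by similar amounts (0.52 and 0.50 on the log2 scale), while WT replicate 1 was higher by 0.38 and WT replicate 2 lower, at -0.11. The average log2 fold change was 0.32 (SE 0.36, adjusted p = 0.999 by limma, and SE 0.09, adjusted p = 0.130 with the block). The blocked fit called Loxl2 only when WT replicate 2 was left out, among the 4 animals left out in turn.

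Loxl3 (ENSMUSG00000000693, chr6:83034173-83052562, plus strand) differed more between the WT animals than between the CAV1-/- animals. It was at 69.9 and 272 in static and 76.5 and 322 in stretched WT MCs, and at 112 and 84.4 in static and 147 and 106 in stretched CAV1-/- MCs. Only WT replicate 2 was above 200 CPM, in both of its cultures. On stretch Loxl3 was higher in 4 of 4 animals, by 1.09 to 1.31 times, at an average log2 fold change of 0.27 (SE 0.59, adjusted p = 0.999 by limma, and SE 0.06, adjusted p = 0.078 with the block). Its exons share 535 of 4603 bases with Htra2 on the other strand, and the library kit does not mark strand. Htra2 was at 41.2 to 57.3 CPM, and the part of the shared bases in the Loxl3 values was not tested.

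Serpinh1 (ENSMUSG00000070436, chr7:99345376-99353239, minus strand) was the most abundant member and had the smallest average difference with stretch. It was at 2783 and 2753 in static and 2891 and 2546 in stretched WT MCs, and at 2413 and 3262 in static and 2682 and 3189 in stretched CAV1-/- MCs. It was higher on stretch in 2 of 4 animals and lower in the other 2, at an average log2 fold change of 0.02 (95% interval -0.18 to 0.21 with the block), and static genotypes differed by 0.02 (95% interval -0.54 to 0.58 by limma). The general chaperones of the endoplasmic reticulum fold many secreted proteins. Of these, 12 of 12 had a higher average on stretch, where 47.7% of all genes did. In all 4 animals 11 of 12 were higher, where 14.5% of all genes were. The median log2 fold change of the 12 was 0.20. None of the 12 was called by limma, with or without the block, by edgeR or by DESeq2. At an unadjusted p of 0.05 limma counted 3 of them without and 10 with the block, beside 4.73% and 21% of all genes. The nearest was Canx, calnexin (0.31, SE 0.07, adjusted p = 0.081 with the block), followed by Hsp90b1 (0.30, SE 0.07, adjusted p = 0.099).

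Tgm2 (ENSMUSG00000037820, chr2:158116402-158146436, minus strand), which joins glutamines to lysines in matrix proteins, was the only member lower on stretch in all 4 animals. It was at 400 and 67.3 in static and at 235 and 41.6 in stretched WT MCs. The CAV1-/- cultures held 590 and 44.8 when static and 550 and 43.2 when stretched. Replicate 1 was 5.95 and 5.64 times replicate 2 in static and stretched WT MCs, and 13.2 and 12.7 times in CAV1-/- MCs, so the groups overlapped. Within animals the stretched value was 0.586 and 0.618 of the static one in WT and 0.932 and 0.963 of it in CAV1-/- MCs.

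The average log2 fold change of Tgm2 with stretch was -0.40 (SE 1.27, adjusted p = 0.999 by limma, and SE 0.06, adjusted p = 0.035 with the block). The blocked call was lost without WT replicate 1 (-0.38), without CAV1-/- replicate 1 (-0.39) and without CAV1-/- replicate 2 (-0.41). It held without WT replicate 2 (-0.42). Without either CAV1-/- animal nearly all calls over all genes were lost too. The decrease was larger in both WT animals than in both CAV1-/- animals, an interaction of 0.65 on the log2 scale (SE 2.54, adjusted p = 1.00 by limma, and SE 0.11, unadjusted p = 0.00094, adjusted p = 0.947 with the block). Loxl2, Loxl3 and Tgm2 were the 3 of 10 members whose per-animal responses did not overlap between genotypes, where 34.4% of genes did not. For Loxl2 the interaction was 0.38 (SE 0.71, adjusted p = 1.00 by limma) and for Loxl3 0.17 (SE 1.18, adjusted p = 1.00). The difference in response between genotypes was therefore not established for any member.

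**Figure D4:**
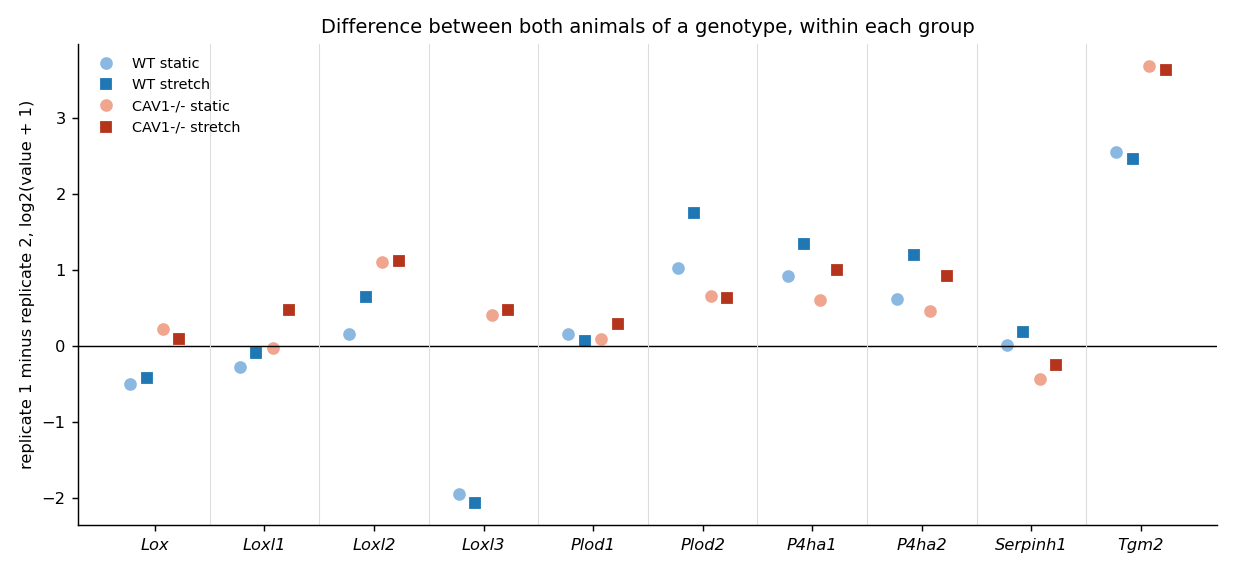
Points give replicate 1 minus replicate 2 in log2(value + 1) within a group, that is between both animals of a genotype (blue WT, red CAV1-/-, circles static, squares stretched). Tgm2 lies between 2.47 and 3.69 in all 4 groups, Loxl3 at -1.95 and -2.06 in WT and at 0.41 and 0.48 in CAV1-/-, Serpinh1 between -0.43 and 0.18, and Plod1 between 0.07 and 0.30.

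Across all genes, 43.1% were higher in the same replicate number in all 4 groups, and 6 of the 10 members were, all of them in replicate 1 (Loxl2, Plod1, Plod2, P4ha1, P4ha2 and Tgm2). For Tgm2 the smallest of the 4 differences was 2.47 on the log2 scale, and 14 of 13665 genes (0.102%) had one as large or larger. For Plod2, P4ha1 and P4ha2 it was 0.63, 0.60 and 0.47, which 4.55%, 4.90% and 7.11% of genes reached. Some marker lists of other cells split by the same number. In each of the 4 groups 13 of 13 leukocyte markers and 4 of 5 smooth muscle and pericyte markers were higher in replicate 1. In replicate 2, 6 or more of 7 fibroblast markers were higher. The 6 endothelial markers did not split, with 3 higher in replicate 1 in both WT groups and 4 in both CAV1-/- groups. Summed leukocyte markers were 448 and 73.6 in static WT, 464 and 77.5 in stretched WT, 4826 and 302 in static CAV1-/- and 4857 and 334 in stretched CAV1-/- MCs, none of the 13 at 0 in any library. Summed fibroblast markers were 413 and 1057, 295 and 999, 210 and 1011, and 214 and 832 in the same order. The part of these cells in the level of Tgm2 was not tested. Some exonic bases of Tgm2 (370 of 4608) lie over Rprd1b on the other strand, which was at 23.5 to 36.7 CPM, and 633 lie over Gm20412, not analysed here. Lox, Loxl2 and Plod2 share 30, 301 and 346 exonic bases with genes annotated on the other strand.

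No member had all 4 CAV1-/- cultures above all 4 WT cultures or below them, where 3.86% and 5.88% of genes did. The median log2 fold change of the 10 members for CAV1-/- against WT was 0.03 in static culture and 0.19 on stretch, beside -0.01 and 0.00 for all genes. With 1 culture left out they ranged from -0.07 to 0.35 and from -0.20 to 0.57, the former being negative without CAV1-/- replicate 1 and the latter without CAV1-/- replicate 1 (-0.20) or WT replicate 2 (-0.02), so neither median had a stable sign.

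Per kb of exon (length of all annotated exons of a gene in GENCODE M21), the members covered a wide range. Mean levels over the 8 libraries fell from 1152 CPM per kb for Serpinh1 to 337 for Lox, 201 for Loxl2, 137 for P4ha1, 93.5 for Loxl1, 81.7 for Plod2, 53.5 for Tgm2, 32.3 for Loxl3, 31.6 for P4ha2 and 19.0 for Plod1. Serpinh1 was above Lox in 8 of 8 libraries, Lox above Loxl2 in 7 and Loxl2 above P4ha1 in 7. Lower in the order, neighbours changed places: Loxl1 was above Plod2 in 4 of 8 libraries, Tgm2 above Loxl3 in 4 and Loxl3 above P4ha2 in 2, both of WT replicate 2. Differences in level between genes were not tested.

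The other genes of collagen processing gave a mixed picture with stretch. For these and the lists that follow, 47.7% of all genes were higher on average with stretch. By limma, 4.73% of all genes without and 21% with the block reached an unadjusted p of 0.05. Of 31 listed, 25 could be compared, and 17 were higher and 8 lower on average, at a median log2 fold change of 0.13. None was called by limma, edgeR or DESeq2 (3 at an unadjusted p of 0.05 by limma, 14 with the block), and with the block 1 of 25 was, Tll1 (0.74, SE 0.08, adjusted p = 0.029), a tolloid protease that cleaves procollagen. Tll1 was at 50.6 and 24.1 in static and 63.4 and 36.7 in stretched WT MCs, and at 62.6 and 39.3 in static and 119 and 86.6 in stretched CAV1-/- MCs. Nearest to the threshold without passing it were Pcolce2, which enhances procollagen cleavage (0.94, SE 0.18, adjusted p = 0.066), and Bmp1, a procollagen C-proteinase (0.54, SE 0.11, adjusted p = 0.073), both higher in 4 of 4 animals. Of other cleavage genes, none of which passed, Adamts2 was lower in 4 of 4 animals, Pcolce and Adamts14 in 3 of 4 and Adamts3 in 2 of 4. Crtap, which forms the prolyl 3-hydroxylase complex with P3h1 (here Lepre1), was lower in 4 of 4 (-0.28, SE 0.06, adjusted p = 0.085).

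**Figure D5:**
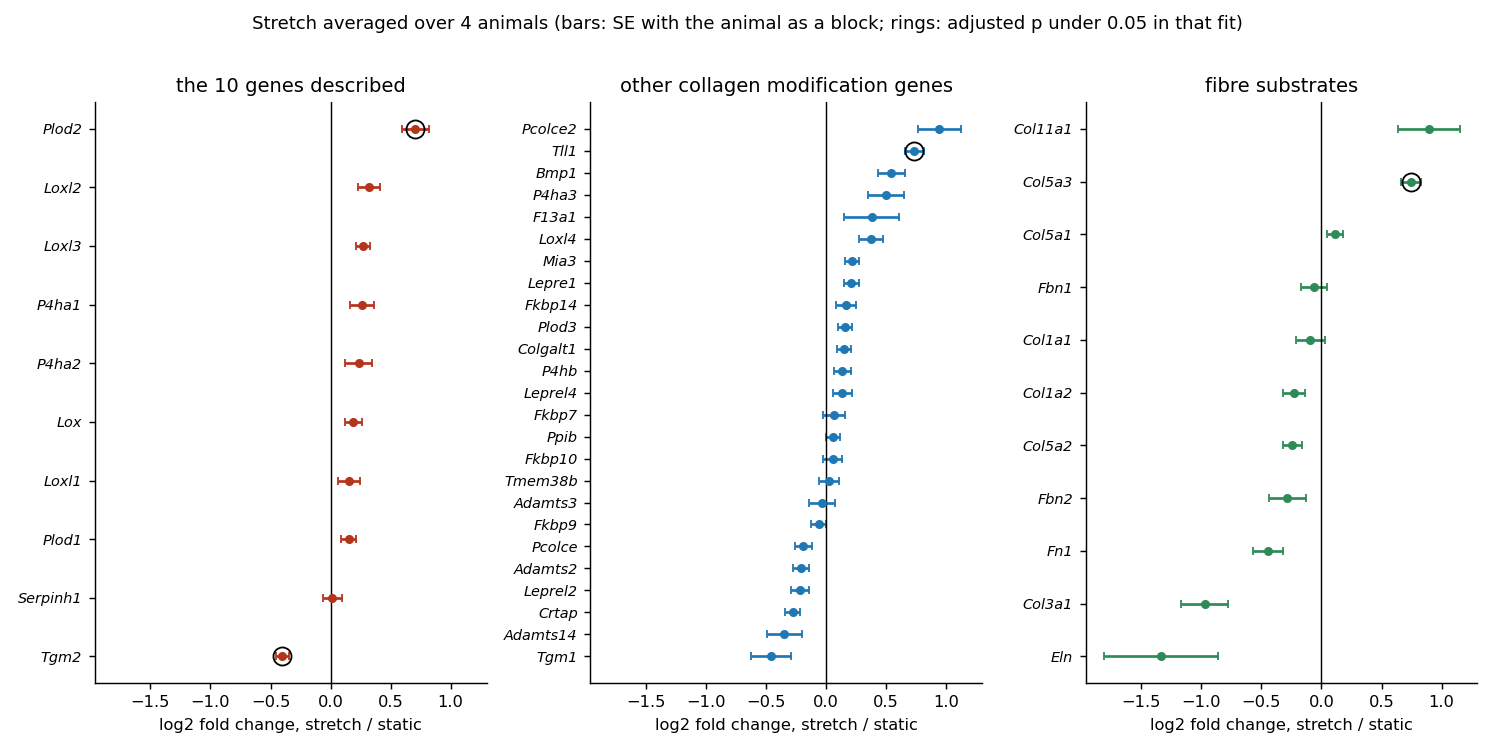
Log2 fold change of stretch over static averaged over the 4 animals, with bars of 1 SE from limma with the animal as a block, for the 10 genes described, 25 other collagen modification genes and 11 fibre substrates. Rings mark an adjusted p under 0.05 in that fit (Plod2, Tgm2, Tll1 and Col5a3), and 9 of the 10 genes described lie right of 0 while 8 of 11 substrates lie left of it.

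Of 11 fibre substrates, the chains that these enzymes act on, 3 were higher and 8 lower on average, at a median log2 fold change of -0.22, and 0 were called by limma without the block, edgeR or DESeq2 (0 at an unadjusted p of 0.05 by limma, 7 with the block). With the block 1 was, Col5a3 (0.75, SE 0.08, adjusted p = 0.029), a minor chain of collagen V, which was at 23.9 and 53.6 in static and 34.0 and 92.0 in stretched WT MCs, and at 72.3 and 115 in static and 118 and 236 in stretched CAV1-/- MCs. Col3a1 was lower in 4 of 4 animals (-0.97, SE 0.19, adjusted p = 0.071), and Col1a1 was lower in 3 of 4 (-0.09, SE 0.12, adjusted p = 0.690). Of 11 fibre assembly partners 3 were higher and 8 lower, at a median of -0.37, and 0 were called by limma without the block, edgeR or DESeq2 (1 at an unadjusted p of 0.05 by limma, 7 with the block). With the block Postn, periostin, was called higher (1.25, SE 0.16, adjusted p = 0.033) and Fbln5, which assembles elastic fibres, lower (-0.44, SE 0.06, adjusted p = 0.033). Copper and ascorbate are cofactors of lysyl oxidases and hydroxylases. Of 7 genes of copper and ascorbate handling, 4 were higher and 3 lower. None was called by limma with or without the block, edgeR or DESeq2 (1 without and 2 with the block at an unadjusted p of 0.05 by limma).

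Between genotypes, 0 of the 25 other collagen modification genes were called by limma or edgeR in static culture or on stretch (1 and 2 at an unadjusted p of 0.05 by limma), and DESeq2 called 1 on stretch, Mia3, which helps load collagen for export. Mia3 was at 161 and 157 in static and 200 and 202 in stretched CAV1-/- MCs, and at 146 and 149 in static and 157 and 159 in stretched WT MCs. In static culture, 21 of 25 had a higher mean in CAV1-/- MCs, at a median log2 fold change of 0.14, beside 47.8% of all genes. On stretch 16 of 25 did, at 0.03, beside 50.0% of all genes. Of the 11 substrates and 11 assembly partners, limma and edgeR called 0 in either condition (1 and 1 at an unadjusted p of 0.05 by limma in static culture, 3 and 1 on stretch), and DESeq2 called Eln and Fbln5 lower in CAV1-/- MCs in both. Fbln5 was at 68.5 and 69.6 in static and 45.2 and 47.1 in stretched CAV1-/- MCs, and at 186 and 148 in static and 143 and 125 in stretched WT MCs, so the genotypes did not overlap in either condition (log2 fold change -1.25 and -1.52, adjusted p = 0.067 and 0.055 by limma).

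As a description of pattern, the genes outside the 10 most like each member over the 8 libraries of 4 animals, of 10787 compared, had Pearson r between 0.94 and 1.00. They were Snap29 and Zfp560 for Lox, Tbc1d25 and Ppp1r37 for Loxl1, Crlf3 and Fads3 for Loxl2, Pcdh19 and Dok1 for Loxl3, Vps29 and Zfp943 for Plod1, Epn2 and Mtfr1 for Plod2, Sgsm1 and Desi1 for P4ha1, Tab2 and Fam174b for P4ha2, Adam9 and Bcl2l2 for Tgm2, and Gpt2 and Rbm10 for Serpinh1. Dok1 (chr6:83030934-83033471) is the neighbour of Loxl3. Among the members, Lox and Loxl3 were also alike (r = 0.92).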

How the data were processed

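Gene expression was measured by RNAseq in 8 libraries, 2 per group per the labels, which were followed although a legend of the study states a larger group size. Per the labels and methods, reads were trimmed (Cutadapt), mapped to the transcriptome of GRCm38 and quantified by RSEM, and edgeR's TMM was used for normalization. The authors deposited the signal as TMM-normalized CPM for 13687 genes. In every library 100% of values were whole multiples of 1 read's value (tolerance 0.01), so reads were recovered. The floor of 3 reads lies at 0.146 to 0.308 CPM and covers counting error only.

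The 13665 genes reaching a value of 1 in 2 or more libraries were fitted on log2(value + 1) by limma (3.58.1, in R 4.3.3), using eBayes with trend, 1 mean per group over all 8 libraries and Benjamini-Hochberg adjustment over all genes. Fold changes are on that scale, stretch over static or CAV1-/- over WT, and understate changes of low genes. The labels tie the static and stretched cultures of an animal together, and the pairing rests on them. Deviations of these cultures from group means correlated (r = 0.70 in WT, 0.85 in CAV1-/-). Those of same-numbered cultures of both genotypes did too (r = 0.52 static, 0.48 stretched), so the correlation alone does not show a shared animal. Alternatives were pseudocounts of 0.1 and 5, other filters, rescaling, eBayes without trend, the block, only the libraries compared, edgeR (4.0.16) and DESeq2 (1.42.0) on recovered reads, and each culture left out. For stretch in WT, stretch in CAV1-/-, genotype static, genotype stretched, interaction and average, edgeR called 0, 0, 2, 6, 0 and 0 genes. The blocked fit without each animal was added after seeing the data.

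All members are named with every value, and with a fold where groups did not overlap or all animals moved alike. List genes past the threshold and up to 4 nearest to it per list are named, as are the 2 genes most like each member among those with a mean of at least 5. The folds of Loxl1, Loxl2, P4ha2 and Serpinh1 in further comparisons, and Eln, Col1a1, Htra2, Rprd1b, Mia3 and Fbln5 between genotypes, and Adamts2, Adamts3, Adamts14 and Pcolce, were given outside that rule, after their values were seen. The members and lists were chosen with earlier results of these data known. Positions, exons and lengths are from GENCODE M21 on GRCm38.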

Additional observations from a re-analysis of the deposited data

How the results depend on the processing

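No setting tried over all animals called a member other than the replicate block, which called 2 for stretch averaged over both genotypes. With an animal left out of that blocked fit, 0 to 3 members and 0 to 769 genes were called: 124 genes and 1 member without WT replicate 1, 769 and 3 without WT replicate 2, 0 and 0 without CAV1-/- replicate 1, and 5 and 0 without CAV1-/- replicate 2. Over all genes the block moved the calls from 0 to 1 for stretch in CAV1-/- and from 0 to 201 for the average. Between genotypes the labels give same-numbered animals only the number in common, yet their deviations from group means also correlated (r = 0.52 static and 0.48 stretched). What they share was not tested. A block by that number moved the genotype calls from 10 to 246 in static and from 8 to 110 in stretched culture, with 0 members. DESeq2 called 3, 7, 309, 238 and 39 genes for stretch in WT, stretch in CAV1-/-, the genotypes in static and stretched culture, and the average. For the genotypes in static culture eBayes without trend called 6 genes and edgeR 2, and with only the 4 libraries of a comparison both genotype counts were 0. With 1 culture left out these counts lay between 0 and 5 in both conditions. The cause was not tested.

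Without the block, leaving out 1 culture leaves its animal with only 1 condition, and the sign then turned for 6 single-gene results that limma had not called: the interaction ranged from -0.18 to 0.94 for Loxl2, -0.863 to 1.199 for Loxl3 and -1.198 to 2.49 for Tgm2, and the average from -0.25 to 0.78 for Loxl3, -0.078 to 0.60 for P4ha1 and -1.32 to 0.52 for Tgm2. The median over the members ranged from -0.11 to 0.33 for stretch in WT and from -0.19 to 0.32 for the interaction. Every library held at least 436 reads of each member, and depth and stretch cannot be told apart.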
